A study of Gallus gallus with 6 samples.

Results

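The ATP-gated channel genes P2RX4 and P2RX7, the cation channel gene TRPC1, the calcineurin subunit gene PPP3R1 and the calcium-calmodulin kinase gene CAMK2D were followed probe by probe in DT40 cells with and without the transcription factor IRF4. A probe was taken as a member if the accession printed for it on the array belongs to one of these genes in RefSeq. This gave 15 of the 43603 gene probes, for 5 of the 4932 genes that could be named: 6 probes for P2RX4, 3 for TRPC1 and a pair each for P2RX7, PPP3R1 and CAMK2D. DT40 is a chicken B cell line from a bursal lymphoma. Untreated wild-type cells were set against untreated IRF4-deficient cells, with 3 separately grown cultures of each genotype and 1 one-colour array per culture. Neither the way IRF4 was inactivated nor the number of clones is stated in the labels, and the errors cover the spread between cultures and may not cover that between clones.

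P2X receptors are trimeric cation channels that open when ATP binds from outside the cell and let sodium and calcium in. P2X4 opens at low ATP, whereas P2X7 needs far more ATP and is known in lymphocytes and macrophages of mammals for calcium entry, shedding of surface proteins and cell death. TRPC1 is a subunit of channels that open after receptor stimulation or emptying of calcium stores. Once calcium has risen, calcineurin, a phosphatase whose calcium-binding B subunit is encoded by PPP3R1, dephosphorylates NFAT transcription factors, and CaM kinase II, whose delta chain is encoded by CAMK2D, phosphorylates many proteins.

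Levels are log2 signals relative to the 75th percentile of each array, and changes are log2 differences, knockout minus wild type, with limma's standard error (SE). Over 28761 tested probes the threshold was a Benjamini-Hochberg adjusted p under 0.05 in limma, which called 70.1% of probes, 40.5% higher and 29.6% lower in the knockout, so a call by itself sets no probe apart. Centring each array on its median instead gave 9231 probes called higher and 10302 lower, against 11650 and 8518, and shifted all changes by -0.09. The brighter IRF4 probe fell from 3.01 ± 0.13 (SD, n = 3) to -1.20 ± 0.14 (SD, n = 3), 18.6-fold lower (limma adjusted p = 4.0e-07). On each array 62.4% to 68.2% of gene spots exceeded background clearly. Of 12 B cell markers with a probe, 12 were detected on every array. Of 10 T cell markers 5, of 10 myeloid markers 6 in wild type and 5 in the knockout, and of 5 thrombocyte and erythroid markers 3 were detected throughout a group. Of 7 fibroblast markers 1 was detected throughout wild type and 2 throughout the knockout. Among them COL1A2 and COL3A1 were called higher, by 4.24 and 0.72, and PDGFRA and THY1 were on no array above background. The T cell markers CD4, GATA3 and IL7R and the myeloid markers CD14, CSF3R and MARCO were on no array above background. Other markers of these lists were above it. CD3D stood at 6.01 in wild type and 6.19 in the knockout, CD5 rose by 1.56 and CD3E fell by 3.44, and the myeloid markers SPI1, MMP9, TLR4, CYBB and CEBPB were detected on every array. The summed signal, in units of the 75th percentile, was 235.1 to 259.3 in wild type and 291.9 to 299.4 in the knockout for the B cell list. It was 68.4 to 70.9 and 74.96 to 88.61 for T cells, 1.71 and 2.122 to 2.134 for myeloid cells, 0.568 to 0.678 and 0.497 to 0.549 for thrombocytes and erythroid cells, and 0.334 to 0.365 and 5.66 to 6.42 for fibroblasts, where COL1A2 carried the rise. In the B cell list CD72 carried most of the rise, with a change of 3.21. PAX5, BLNK, SYK, EBF1 and BCL11A rose by less and were called higher. LYN (-0.95) and TNFRSF13C (-0.59) were called lower, and CD79B, BTK, POU2AF1 and CD74 were not called. The part of these marker shifts in the results was not tested.

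Of the 15 probes, 15 passed the filter on dim signals and 14 were well above background on all arrays. Both P2X genes fell, TRPC1 and CAMK2D rose, and PPP3R1 was slightly lower with its bright probe, while its other probe was not called. In all, 9 probes were called lower, 5 higher and 1 was not called, and the groups did not overlap for 14, against 75.6% of all tested probes. In these bulk samples, fewer cells that make a transcript and less of it per cell cannot be told apart.

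**Figure D1:**
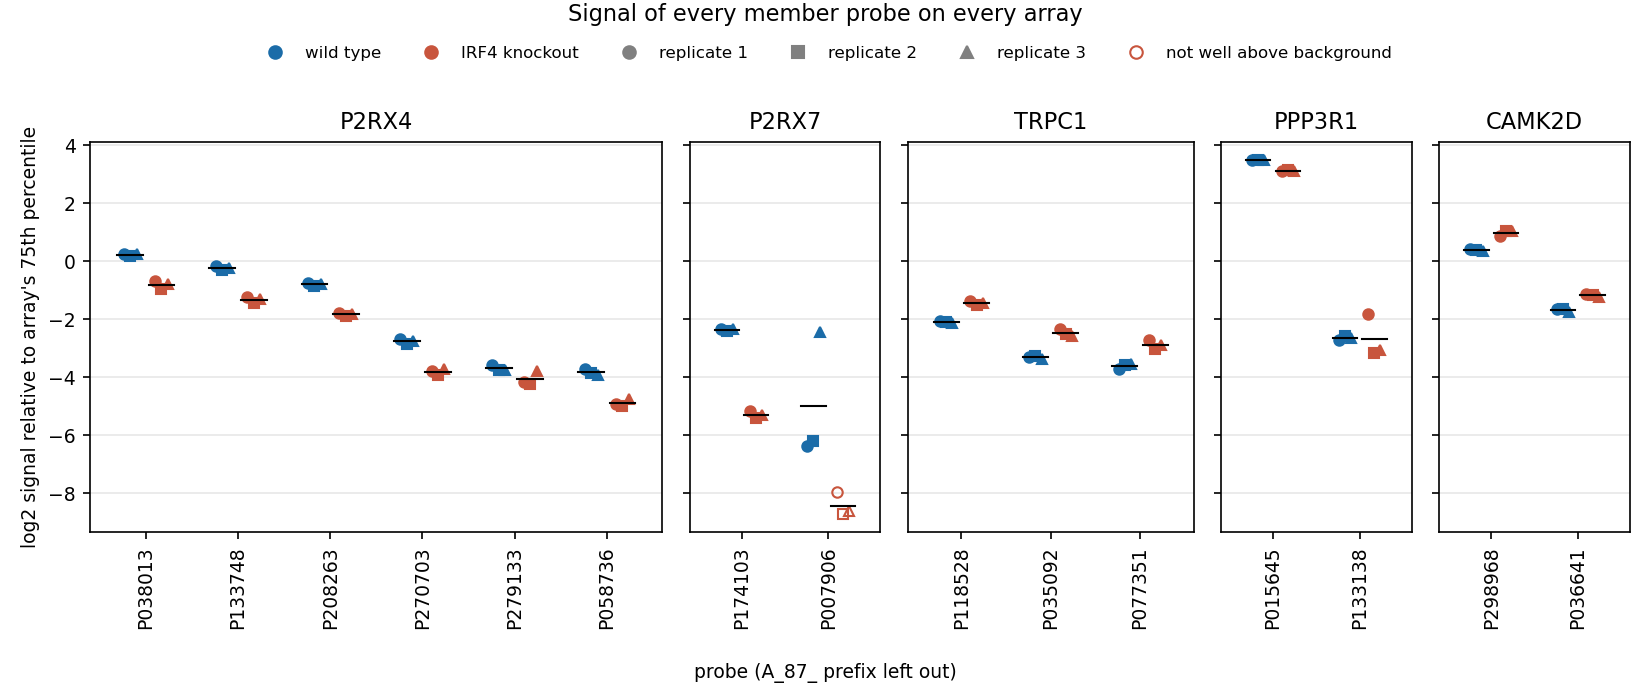
Signal of each of the 15 probes on each of the 6 arrays, in log2 units relative to the array's 75th percentile (vertical axis); blue is wild type, red is IRF4 knockout, marker shapes are replicates 1 to 3, black bars are group means and open symbols were not well above background. The groups are apart for every probe but A_87_P133138 of PPP3R1, and wild type replicate 3 stands far above the others for A_87_P007906 of P2RX7.

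P2RX7 showed the largest change among the 5 genes. Its brighter probe, A_87_P174103, read -2.35, -2.40 and -2.34 on the wild-type arrays and -5.18, -5.40 and -5.30 on the knockout arrays. The arrays of a group lay close together and the groups were far apart. The change was -2.93 ± 0.06 (limma adjusted p = 3.3e-07), a 7.61-fold lower signal. Among 3833 tested genes with names, each taken by its brightest probe, 77 fell further by fitted change. Genes with no knockout array well above background were counted at their fitted changes too. The knockout arrays still read above the lowest signals counted as well above background, which averaged -6.60 there. With normexp background correction the change was -2.12. Within the slides that carried an array of each genotype it was -2.83 and -2.996.

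The other P2RX7 probe, A_87_P007906, went the same way with a wide spread. It read -6.38, -6.20 and -2.43 in wild type and -7.97, -8.73 and -8.62 in the knockout, where none of the 3 arrays had it well above background. Wild type replicate 3 was thus far above its group on this probe, although the same array did not stand out on the brighter one. The fitted change, which uses those dim knockout readings, was -3.44 (limma adjusted p = 0.027). As a bound, which was not itself tested, the knockout signal was at least 3.03-fold lower with all wild-type arrays. It was at least 1.24-fold lower without wild type replicate 3. Without wild type replicate 1 or 2 the bound was 4.89-fold or 4.58-fold. The call was lost when any 1 knockout array was left out (adjusted p from 0.052 to 0.077) and with normexp (-1.24, adjusted p = 0.077).

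P2RX4 fell to a lesser degree. Its brightest probe, A_87_P038013, read 0.24, 0.18 and 0.25 in wild type and -0.68, -0.97 and -0.80 in the knockout. All wild-type arrays lay above all knockout arrays, and the change was -1.04 ± 0.08 (limma adjusted p = 5.5e-05), a 2.05-fold lower signal. Of the other 5 probes, 4 gave nearly the same change at the main setting: A_87_P133748 -1.10 ± 0.07, A_87_P208263 -1.04 ± 0.05, A_87_P270703 -1.06 ± 0.07 and A_87_P058736 -1.08 ± 0.08. With normexp the dimmer of these gave smaller changes, -0.84 for A_87_P270703 and -0.68 for A_87_P058736, against -1.02, -1.04 and -0.99 for A_87_P038013, A_87_P133748 and A_87_P208263. Among the named genes 261 of 3833, P2RX7 among them, fell further than the brightest probe, again by fitted change.

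The remaining P2RX4 probe departed from its companions. A_87_P279133 read -3.57, -3.75 and -3.74 in wild type and -4.16, -4.23 and -3.80 in the knockout, so that knockout replicate 3 came close to the wild-type range. Its change was -0.38 ± 0.12 (limma adjusted p = 0.031). The call was lost when any array but knockout replicate 3 was left out (adjusted p from 0.055 to 0.091), and without replicate 3 of the knockout the change was -0.51. Taken within each array, the change of A_87_P038013 exceeded that of A_87_P279133 by 0.66 downward, and the arrays of the genotypes did not overlap in this difference. An exact permutation test gave p = 0.1, the smallest that 3 against 3 arrays allow, and 0.26 after Benjamini-Hochberg adjustment over the 21 probe pairs compared. Of the 15 P2RX4 pairs 6 did not overlap, against 8 of all 21 pairs compared. Of these 6, 5 involved A_87_P279133. They share that probe and are not separate observations, and each had an adjusted p of 0.26 in the permutation test.

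P2RX7 fell by more than P2RX4. The within-array difference between their brightest probes was -2.58 ± 0.01 (SD, n = 3) in wild type and -4.48 ± 0.05 (SD, n = 3) in the knockout, a gap in change of -1.89 (exact permutation p = 0.1, two-sided; 0.26 after adjustment over the 21 pairs). With normexp the gap was -1.10. The pair lie next to each other in the chicken genome, with no gene between them in the RefSeq table of the GRCg7b assembly. Of the 106 tested genes on their chromosome, whose median change was 0.09, 0 fell further than P2RX7 and 5, P2RX7 among them, fell further than P2RX4. The nearest tested genes with names around the pair changed by far less. On the P2RX7 side this was DENR, a translation factor gene 10 genes away in the table, which differed by -0.08 ± 0.07 (limma adjusted p = 0.34). On the P2RX4 side it was ANAPC5, a subunit gene of the anaphase-promoting complex 3 genes away, which differed by 0.01 ± 0.05 (adjusted p = 0.82). The genes in between were not among the tested genes with names, so their changes are not known. Further out, the ubiquitin ligase gene RNF34 rose by 0.24 ± 0.05 and the calcium channel gene ORAI1 fell by 0.32 with an SE of 0.05. On the P2RX7 side CDK2AP1 differed by -0.39 ± 0.08 and SBNO1 by -0.14 ± 0.04, both called lower. Of the 10 tested genes nearest to P2RX7, P2RX4 among them, 2 rose, 4 fell and 4 were not called.

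Other genes listed as purinergic receptors or for ATP handling moved in both directions. The list of purinergic receptors and ATP handling had 34 genes, 14 of them with a probe and 12 tested, of which 4 rose and 4 fell. Here and in the lists below, a gene has a probe if an accession on the array matched it. Only 24.5% of the probes gained a name this way, so a gene without a match may still be on the array. Of all 3833 tested genes with names, 70.2% were called, 38.5% higher and 31.8% lower. The median change of the list was 0.18, against 0.05 for all 3833 genes. The ATP- and ADP-sensing G protein-coupled receptor gene P2RY1 fell from -4.23 ± 0.10 to -5.27 ± 0.02 (SD, n = 3 each), a change of -1.04 ± 0.06. P2RY6, which encodes a UDP receptor, fell from -1.82 ± 0.08 to -2.94 ± 0.09 (SD, n = 3 each), a change of -1.12 ± 0.06. P2RY1 lies on the chromosome of TRPC1, whose genes shifted down as described below.

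Among the genes that rose, P2RY8, a G protein-coupled receptor gene known from human B cells, rose by 0.85 ± 0.06. ENTPD2, an ectonucleotidase gene, had no wild-type array well above background and rose at least 1.602-fold. This rests on the 1 of its 4 probes that was tested, which was dim in the knockout too (-5.90). ENTPD4, which encodes an intracellular nucleotidase, rose by 0.31 ± 0.07 and ADA, adenosine deaminase, by 0.23 ± 0.04. For ADA the adjusted p was 0.052 once slide entered as a fixed block, so that call was lost. The further P2X genes P2RX5 (-0.07 ± 0.06, adjusted p = 0.28) and P2RX1 (0.33 ± 0.24, adjusted p = 0.26) did not pass the test. For P2RX1 the other probe was called higher, and the brightest was called without wild type replicate 1 (0.61, adjusted p = 0.0068). ENTPD8 differed by 0.73 ± 0.54 (adjusted p = 0.26), with knockout replicate 2 at -3.68 against -5.20 and -5.86 on the other knockout arrays. The adenosine receptor gene ADORA2B differed by 0.13 ± 0.13 (adjusted p = 0.40) with its brightest probe, which was called higher without knockout replicate 3 (0.26, adjusted p = 0.039), and its other tested probe was called lower.

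TRPC1 rose with all 3 of its probes. The brightest, A_87_P118528, read -2.08, -2.09 and -2.13 in wild type and -1.39, -1.52 and -1.43 in the knockout. The change was 0.65 ± 0.05 (limma adjusted p = 4.1e-05), a 1.57-fold higher signal. A_87_P035092 gave 0.83 ± 0.07 (adjusted p = 7.3e-05) and A_87_P077351 gave 0.75 ± 0.09 (adjusted p = 0.00052), with no overlap of the groups on either. The change of A_87_P035092 exceeded that of A_87_P118528 by 0.18 on the same arrays, without overlap (exact permutation p = 0.1; 0.26 after adjustment over the 21 pairs). With normexp this gap was 0.08 in size (exact permutation p = 0.4), and with the authors' values 0.13 (p = 0.2).

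This rise stood against the direction of the chromosome that carries TRPC1. Over its 102 tested genes the median change was -0.65, with 80.4% called lower and 6.86% called higher, and 3 genes on it rose by more than TRPC1. The nearest tested gene on one side, PLS1, which encodes an actin-bundling plastin and lies directly beside TRPC1 in the table, rose by 1.03 ± 0.19 (limma adjusted p = 0.0030). Beyond PLS1, GK5, a glycerol kinase family gene, fell by 1.69 (SE 0.06), and SLC9A9, a sodium-proton exchanger gene and the nearest tested gene on the other side, fell by 1.78 (SE 0.07). Of the 10 nearest tested genes 8 fell, 1 rose and 1 was not called. With the chromosome's median subtracted the change of TRPC1 was 1.30.

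**Figure D2:**
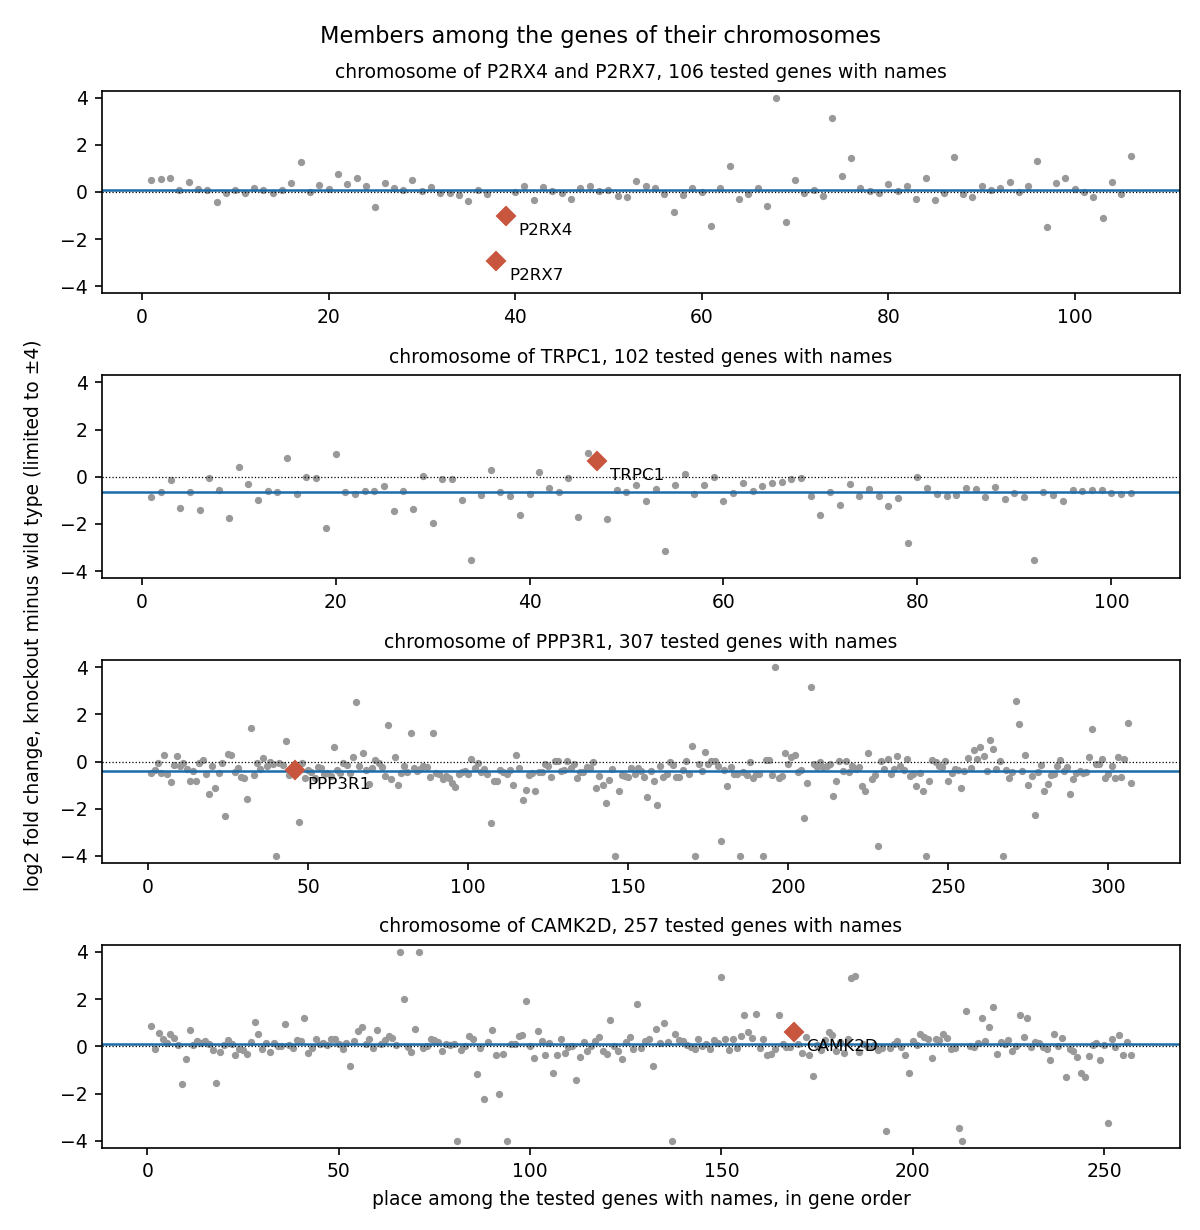
Change of every tested gene with a name (grey, log2 fold change, knockout minus wild type, limited to ±4) on the chromosomes of the 5 genes, in gene order from left to right; red diamonds are the 5 genes, the blue line is the median of the chromosome and the dotted line is 0. P2RX7 and P2RX4 lie below a median of 0.09, TRPC1 above a median of -0.65, PPP3R1 on its median of -0.39 and CAMK2D above a median of 0.10.

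Few other channels of the TRP family and its relatives had a probe with a matched accession. Of 30 genes listed 6 had a probe and 4 were tested, and 1 rose (TRPC1) and 1 fell. The gene that fell was PKD2, which encodes the calcium-permeable channel polycystin-2. It stood at -1.97 ± 0.07 (SD, n = 3) in wild type, had no knockout array well above background and fell at least 24.9-fold. The osmosensitive channel gene TRPV4 (0.17 ± 0.10, limma adjusted p = 0.16) and the endolysosomal channel gene TPCN3 (0.06 ± 0.12, adjusted p = 0.66) did not pass the test.

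CAMK2D rose with both probes by about the same amount. A_87_P298968 read 0.42, 0.39 and 0.35 in wild type and 0.87, 1.04 and 1.03 in the knockout, a change of 0.59 ± 0.06 (limma adjusted p = 0.00015) or 1.51-fold. A_87_P036641 read -1.65, -1.65 and -1.77 in wild type and -1.13, -1.18 and -1.23 in the knockout, a change of 0.51 ± 0.05 (adjusted p = 0.00018). The groups did not overlap on either probe. The changes of the pair differed by 0.08 and overlapped between the genotypes (exact permutation p = 0.4, two-sided). On the chromosome of CAMK2D the median change was 0.10 over 257 genes, 33 of which rose by more. Of its 10 nearest tested genes 2 rose and 3 fell, while over the chromosome 42.4% were called higher and 24.9% lower.

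The calmodulin and CaM kinase list had 26 genes, 9 with a probe and 8 tested, and 4 rose and 1 fell (median 0.22). All 3 CaM kinase II chains with a probe, CAMK2D itself among them, were called higher, as were 38.5% of all tested genes with names. CAMK2B, the beta chain, rose from -5.37 ± 0.18 to -4.09 ± 0.17 (SD, n = 3 each), a change of 1.28 ± 0.12 (limma adjusted p = 0.00013). CAMK2A, the alpha chain, rose by 0.35 ± 0.12 (adjusted p = 0.040), and this call was lost in 8 of 16 alternatives, reaching an adjusted p of 0.18 in the fit that blocks on slide. CRTC1, a coactivator of the calcium-responsive factor CREB, rose by 0.28 ± 0.05. The calmodulin gene CALM2 fell by 0.37 (SE 0.05); it lies on the chromosome of PPP3R1, whose median was -0.39. CREB1 (0.09 ± 0.04, adjusted p = 0.090), which encodes CREB itself, and the death-associated kinase gene DAPK1 (0.16 ± 0.22, adjusted p = 0.53) did not pass with their brightest probes. For DAPK1 2 of 3 probes were called higher, and CREB1 was called higher without knockout replicate 2 (0.11, adjusted p = 0.036).

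PPP3R1 was bright and changed little. A_87_P015645 read 3.50, 3.50 and 3.49 in wild type and 3.12, 3.15 and 3.10 in the knockout, a change of -0.37 ± 0.03 (limma adjusted p = 0.00011) or 1.29-fold. The arrays of each genotype lay close together, with an SD of 0.006 in wild type and 0.02 in the knockout. Its second probe, A_87_P133138, read -2.74, -2.57 and -2.67 in wild type and -1.81, -3.17 and -3.06 in the knockout. Knockout replicate 1 lay above the wild-type arrays and the other knockout arrays below them, so the groups overlapped, and the change was -0.02 ± 0.36 (adjusted p = 0.96). Without knockout replicate 1 the second probe fell by 0.46 (adjusted p = 0.0028). The bright probe did not show the high value of that array. The gap between the changes of the pair was -0.35, and the genotypes overlapped in it (exact permutation p = 0.9, two-sided; 0.9 after adjustment over the 21 pairs).

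The change of the bright PPP3R1 probe lay close to the median of its chromosome. The median change over 307 tested genes there was -0.39, with 69.7% called lower, and subtracting it left PPP3R1 at 0.02 (adjusted p = 0.70). Of the 10 nearest tested genes 7 fell and 1 rose. PNO1, a ribosome assembly gene directly beside PPP3R1, fell by 0.42 (SE 0.08). PLEK, which encodes the protein kinase C substrate pleckstrin and lies directly on the other side, fell by 2.57 (SE 0.10). MEIS1, a homeobox gene, rose by 0.85 ± 0.11.

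**Figure D3:**
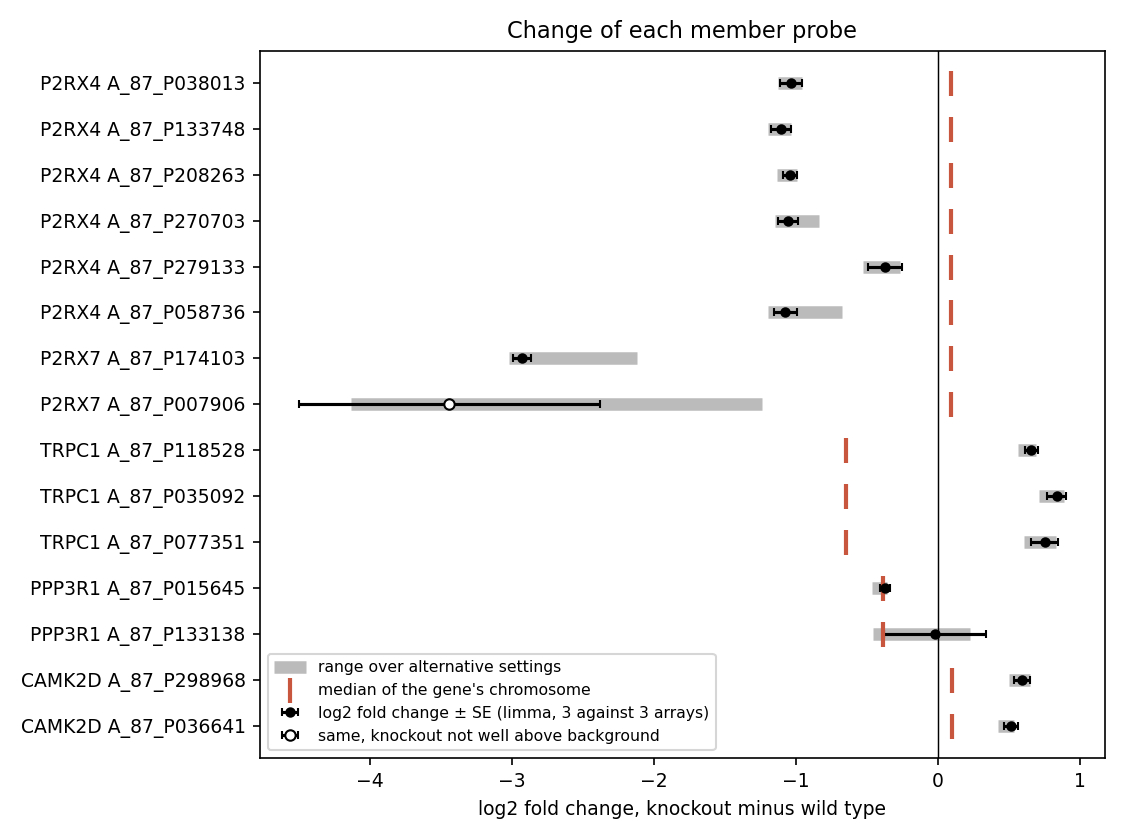
Change of each of the 15 probes (black, log2 fold change, knockout minus wild type, ± SE from limma, 3 arrays against 3), its range over the alternative probe-level settings (grey bars) and the median change of the gene's chromosome (red ticks). The grey bars of all P2RX4, P2RX7, TRPC1 and CAMK2D probes stay on their side of 0, and that of A_87_P133138 of PPP3R1 runs from -0.46 to 0.22.

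Genes that work with calcineurin changed mostly by small amounts. Of 26 listed, 11 had a probe and were tested, and 5 rose and 2 fell (median 0.10). PPP3CB, a catalytic subunit of calcineurin, was at 2.59 ± 0.08 in wild type and 2.59 ± 0.09 in the knockout (SD, n = 3 each; change -0.002 ± 0.06, limma adjusted p = 0.98), and none of its 4 tested probes was called. The transcription factor gene MEF2A, a calcineurin target, rose from 1.96 ± 0.08 to 2.92 ± 0.06 (SD, n = 3 each), a change of 0.96 ± 0.06. The NFAT kinase genes DYRK1A (0.49 ± 0.06) and DYRK2 (0.35 ± 0.05) rose, as did NFAT5 (0.39 ± 0.04), an NFAT relative that calcineurin does not control. PPIA, the target of cyclosporin, rose by 0.24 ± 0.06, a call that was lost under quantile scaling (adjusted p = 0.23), median centring (0.052), the authors' values (0.23) and a block on slide (0.075). CHP1, an inhibitor of calcineurin, fell by 0.11 (SE 0.04, adjusted p = 0.034), and the call was lost when any array but knockout replicate 2 was left out. It was also lost without the filter (0.084), with slide as a fixed block (0.29) and in the replicate block (0.081). RCAN3 (0.10 ± 0.04, adjusted p = 0.069), FKBP1A (-0.03 ± 0.05, adjusted p = 0.62) and CSNK1A1 (-0.09 ± 0.05, adjusted p = 0.16) did not pass with their brightest probes, and the other RCAN3 probe was called higher. FKBP1A was called lower under quantile scaling (-0.15, adjusted p = 0.025) and CSNK1A1 with median centring (-0.18, adjusted p = 0.025).

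Store-operated calcium entry couples the calcium sensors STIM1 and STIM2 of the endoplasmic reticulum to ORAI channels of the plasma membrane. Of 23 genes listed for it and for calcium release 7 had a probe and 6 were tested, and 3 rose and 1 fell (median 0.04). ORAI1, the pore subunit, fell from 2.36 ± 0.06 to 2.03 ± 0.04 (SD, n = 3 each), a change of -0.32 ± 0.05 (limma adjusted p = 0.0011). STIM2 rose by 0.51 ± 0.08 (adjusted p = 0.0018), and the gene that RefSeq names ORAI3, with ORAI2 as a synonym, by 0.44 ± 0.05 (adjusted p = 0.00028). ITPR1, a calcium release channel gene, rose by 0.17 ± 0.06 (adjusted p = 0.046), a call that was lost under quantile scaling, median centring and the authors' values (adjusted p from 0.12 to 0.25) and when any array but knockout replicate 2 was left out. STIM1 (-0.08 ± 0.04, adjusted p = 0.11) and the STIM regulator gene SARAF (-0.10 ± 0.04, adjusted p = 0.075) did not pass, and both were called lower with median centring (-0.17 and -0.19). The other tested STIM1 probe was called higher. SARAF was also called lower under quantile scaling (-0.12), with the authors' values (-0.12) and without knockout replicate 2 (-0.13).

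Among 27 genes of calcium pumps, exchangers and mitochondrial uptake 7 had a probe and 5 were tested, and 3 rose and 0 fell (median 0.15, range -0.06 to 0.36; 0 also fell at an unadjusted p under 0.05 in limma, and 1 was called lower without knockout replicate 1). The largest rise was that of ATP2B1, a plasma membrane calcium pump gene (0.36 ± 0.10, limma adjusted p = 0.015), whose call was lost without knockout replicate 3 (0.051) and in the fit that blocks on slide (0.063). The smaller rise of LETM1 (0.15 ± 0.05, limma adjusted p = 0.033) depended on the setting. Its call was lost with normexp (0.10), quantile scaling (0.053), median centring (0.37), no filter (0.079) and a block on slide (0.092). It was also lost when wild type replicate 2 or 3 or knockout replicate 1 or 2 was left out. Across the 6 lists 20 of 46 tested genes rose and 9 fell, against 38.5% and 31.8% of all named genes. Without the 5 genes followed here the counts were 18 and 6 of 41.

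**Figure D4:**
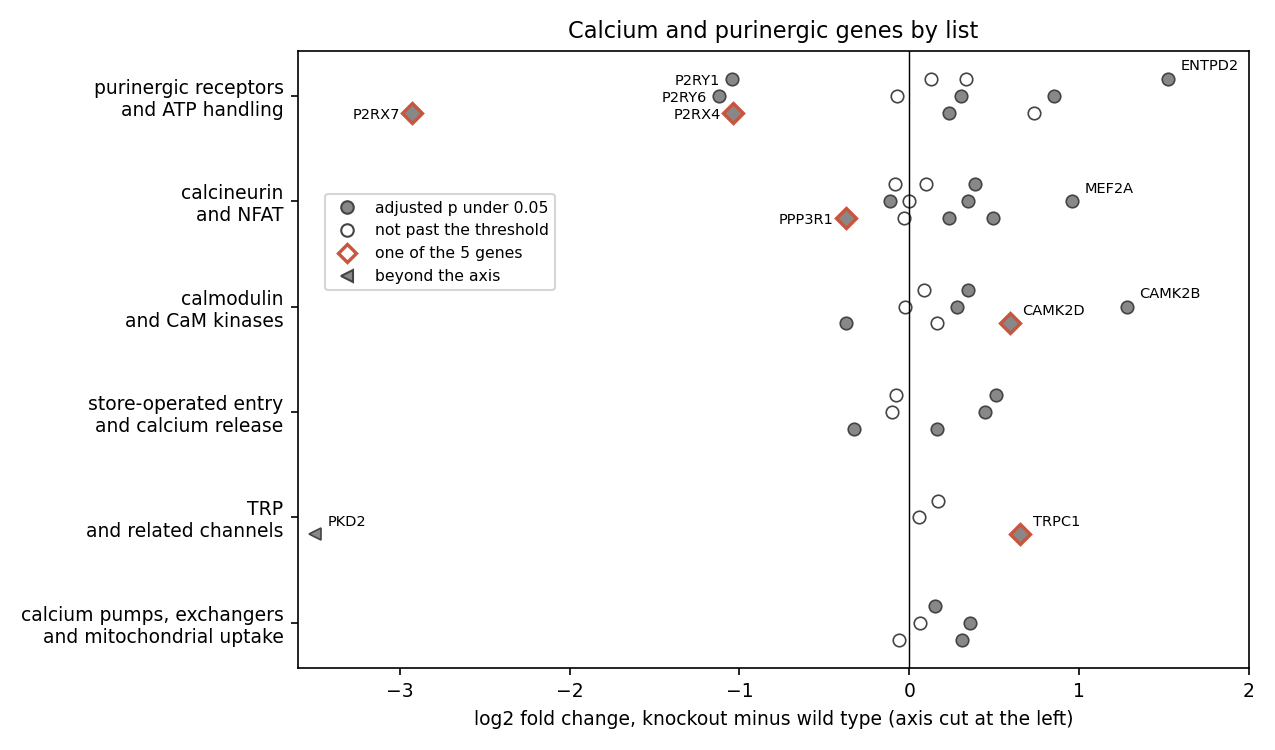
Change of each tested gene (log2 fold change, knockout minus wild type, by its brightest probe) in the 6 calcium and purinergic lists; filled symbols passed an adjusted p under 0.05 in limma, red diamonds are the 5 genes, and the triangle is PKD2, whose fitted change lies beyond the axis and is given in the text as a bound. ENTPD2 is drawn at its fitted change of 1.52, although no wild-type array had it well above background and the text gives a bound for it too. P2RX7, P2RX4, P2RY1 and P2RY6 form the lower end of the purinergic list, while CAMK2D, CAMK2B and TRPC1 lie above 0.

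The genes with the most similar profiles were sought among 3595 named genes detected in both genotypes, by the root-mean-square difference over the 6 arrays after centring on the wild-type mean. This measure mostly matches the size of the change. P2RX4 was closest to the DNA glycosylase gene NEIL1 (difference 0.03 log2 units, change -1.06 ± 0.10) and the cyclin gene CCNE2 (0.04, change -1.01 ± 0.07). P2RX7 was closest to the transcriptional coregulator gene CITED4 (0.06, change -2.92 ± 0.03) and to TNFSF10, which encodes TRAIL (0.11, change -2.79 ± 0.11). TRPC1 was closest to the mitotic kinase gene NEK7 (0.02, change 0.66 ± 0.05) and the gephyrin gene GPHN (0.03, change 0.63 ± 0.04). PPP3R1 was closest to CASP6, a caspase gene (0.01, change -0.37 ± 0.04), and the transcobalamin receptor gene CD320 (0.02, change -0.37 ± 0.03). CAMK2D was closest to the adaptor gene DAPP1 (0.03, change 0.62 ± 0.05) and CPT1A, which encodes an enzyme of fatty acid import into mitochondria (0.04, change 0.60 ± 0.06).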

How the data were processed

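Per the file headers, the authors read each one-colour Agilent chicken array (45220 spots) with Feature Extraction 10.7.1.1, with annotation on galGal3. The deposited intensity values are background-subtracted processed signals on a linear scale; detection and outlier flags, deposited as other codes of 0 or 1, come from the same files. The deposited table of processed values holds intensity on a linear scale with the same median (225.7) in every array; how it was made is not stated in the labels; limma and R 2.12.0 appear in the submitters' processing notes with no role. The labels' dye field reads biotin, whereas their protocol and the files give 1 green channel, which was followed.

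Signals were taken as log2 minus each array's 75th percentile; 1417 control spots and outlier-flagged ones were dropped, and replicate spots averaged. A probe was tested if well above background on all 3 arrays of a genotype. Of 43603 probes 10691 (24.5%) gained 1 symbol from a RefSeq table of GRCg7b by unversioned accession, 0 gained several and 32912 gained none; because its build is not that of the array, only names and gene order were used. A listed gene with no matched probe is not analysed here. Listed genes are taken by the probe with the highest mean over the 6 arrays. limma 3.58.1 in R 4.3.3 (lmFit, eBayes, two-sided, genotype only) compared the genotypes over all 28761 tested probes. A bound ("at least") compares the bright group's mean with a floor for the dim group: on each array, the dim probe's signal or the lowest one well above background, whichever is larger, then averaged. Exact permutation tests used scipy 1.17.1.

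The members and lists were chosen with earlier results of these data known. Rule for named genes: the 5 genes and IRF4; tested genes of the purinergic, calcineurin, CaM kinase and store-operated lists; of the other lists the called gene of largest change in each direction; and the 2 most similar genes of each member. TRPV4, TPCN3, LETM1 and the neighbouring genes fall outside it and were named after their values were seen. BLNK among the markers was read as SH2D6 and CD8B as CD8BP, their synonyms in the table. Same-numbered cultures did not deviate together (r from -0.012 to -0.008 over 28629 probes), so the numbers were not taken as pairs. The 6 arrays lay on 4 slides, 2 of which held both genotypes. Normexp used the median spot signal (offset 50), since the mean signal planned for it was not among the columns. Values of some listed genes are not reported here.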

Additional observations from a re-analysis of the deposited data

How the results depend on the processing

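Over 254 combinations of a member probe and an alternative, 236 kept direction and side of the threshold. Of the rest, 12 lost the call, 1 gained it and 5 turned sign, all given here or above. Several alternatives left the fitted change of these probes as it was, so only the side of the threshold could differ. These were no filter, detection on all arrays, outlier spots kept, the replicate block and the gene-level fit on the brightest probe. A_87_P279133 of P2RX4 lost its call without the filter (-0.38, adjusted p = 0.072), and leaving out 1 array moved it between -0.51 and -0.29. A_87_P007906 of P2RX7 lost its call without the filter (-3.44, adjusted p = 0.064) and with normexp (-1.24), and leaving out 1 array gave -4.13 to -2.15; these are fitted values against knockout arrays not above background, for which only the bounds of 1.24-fold to 4.89-fold hold when a wild-type array is left out. PPP3R1 lost its call with the mean of its probes (-0.20) and turned sign with its chromosome's median subtracted (0.0152). Its probe A_87_P133138 turned to 0.16 with slide as a fixed block and ranged from -0.46 to 0.22 when 1 array was left out, with 0.02, 0.17 and 0.22 on the other side of 0; the gap between the pair's changes (-0.35) ranged from -0.61 to 0.086 when 1 array was left out, turning sign without knockout replicate 1. The causes were not tested. Of the calcineurin list 1 gene in place of 2 was called lower without the filter, with slide as a fixed block, with the mean of probes and in the replicate block, and 1 to 2 when 1 array was left out. Of the store-operated list 2 were called lower, not 1, with the authors' values and under quantile scaling, 3 with median centring, and 1 to 2 with 1 array left out. Of the TRP list 2 rose in the replicate block, TRPV4 being the second, and 0 fell when detection on all arrays was required, which drops PKD2. Of the pump list 1 rose with slide as a fixed block, and 0 to 1 fell with 1 array left out. Fewer than 3 also rose in the other settings where LETM1 or ATP2B1 lost its call. The same-numbered cultures do not pair: with the replicate number as a block 11117 probes were called higher and 8156 lower, P2RX7 fell by 2.93 and P2RX4 by 1.04, and no member probe changed its call. With slide as a fixed block, which rests on the slides that held both genotypes, 8814 and 6951 were called. Only 3 arrays a group, dim second probes and unknown clone number limit these results; the genotype was not compared within every slide.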
